A study of Mus musculus with 24 samples.

Results

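The genes examined here were 10 genes of the macrophages that live in the bone marrow at the centre of erythroblastic islands: C1qa, C1qb, C1qc, Vcam1, Cd5l, Slc40a1, Spic, Mrc1, Axl and Adgre1. They were taken by symbol from the gene table, which holds 24091 genes, and all 10 were present and passed the filter on low counts that left 13520 genes for testing. The libraries were made from Lin-Sca-1+c-Kit+ cells (LSKs), the marrow fraction that holds stem and multipotent progenitor cells and, in chronic myeloid leukemia (CML) mice, is enriched for leukemic stem cells. The levels of the 10 genes were followed as a measure of macrophage material in these sorted LSKs.

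Erythroblastic island macrophages hold maturing erythroblasts on their surface, take up the nuclei that red cells expel and worn-out red cells, and return the iron to the circulation. The adhesion molecule Vcam1 binds the erythroblasts, the phagocytic receptors Axl and Mrc1 and the secreted proteins C1q and Cd5l take part in recognising cell debris, Slc40a1 encodes ferroportin, the iron exporter, and Spic encodes the heme-induced transcription factor Spi-C that these cells need. Adgre1 encodes F4/80, the surface antigen by which mouse macrophages are usually recognised. Such macrophages are large and fragile, and pieces of them are known to cling to other marrow cells when marrow is dispersed.

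RNA was sequenced from 24 libraries of BM LSKs, 6 for each of 4 groups, each group with 3 female and 3 male mice on the C57BL/6 background. WT mice carried miR-142+/+ and no BCR-ABL, and miR-142 KO mice were miR-142-/- in every cell of the body, macrophages included. CP CML mice were miR-142+/+ BCR-ABL and served as the chronic phase model, and BC CML mice were miR-142-/- BCR-ABL and served as the blast crisis model. BCR-ABL came from the SCLtTA/BCR-ABL transgene, in which the tetracycline transactivator is driven by SCL regulatory sequence in stem and progenitor cells, and it had been switched on for 2 weeks by withdrawing tetracycline. Ages were not given in the sources used here. The study's methods speak of 5 mice per group, whereas the labels list 6. Library totals ran from 16267965 to 24687077 counts. Mir142 was read at 94 to 127 counts in WT and 68 to 153 counts in CP CML, and at 0 counts in all 12 libraries of the KO and BC CML groups, as their labels say. The LSK markers Kit, Ly6a and Cd34 were present in every library, with a mean Kit level of 978 ± 169 CPM in WT and 774 ± 38.8 CPM in BC CML (SD, n = 6 each), where CPM is the count scaled to a library of fixed size.

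Because miR-142 separated the groups, its mature sequences and its possible sites in the members are shown first, as read from RefSeq (GRCm38.p6, chr11:87756867-87756887 and chr11:87756903-87756925, plus strand), with the seed, bases 2 to 8, in capitals.
mmu-miR-142a-5p: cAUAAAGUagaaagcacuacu
mmu-miR-142a-3p: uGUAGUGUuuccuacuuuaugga
The 7 letters that pair with the 5p seed, ACTTTAT, occurred in the longest annotated 3' UTR (GENCODE M21) of 3 of the 10 members, against 15.9% of 12618 tested genes with a 3' UTR, and those that pair with the 3p seed, ACACTAC, in 0 of 10, against 7.0%. The UTR of Spic ends beyond the gene end in the deposited table, so its match lies outside the coordinates given for the gene below. The match in Vcam1 lies well inside the gene, away from its 3' end at chr3:116110020, in an annotated UTR of 1404 bases. Whether Vcam1 transcripts that reach the gene end carry it was not examined. The matches, in capitals within 30 bases of the transcript strand, were in Vcam1 (mm10, chr3:116122311-116122317, minus strand), Spic (chr10:88675231-88675237, minus strand) and Axl (chr7:25758227-25758233, minus strand).
Vcam1 3' UTR: tcaaagatactACTTTATattgaaccctca
Spic 3' UTR: gctatgcaaacACTTTATgtctagagtatg
Axl 3' UTR: aaggcttctagACTTTATttttctggagcc
A match of letters is a description and not a measured site.

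Some libraries stood apart in the members before any groups were compared. In WT, the female replicate 3 was the highest of the 6 libraries in all 10 members, at 7.13 to 16.9 times the median of the other 5, and the male replicate 6 was the lowest in all 10. In miR-142 KO, the female replicate 3 was the lowest of the 6 in all 10 members, and its C1qa, C1qb and C1qc counts were 1, 2 and 1. In CP CML, all 3 males lay above all 3 females in each of the 10 members. Over all tested genes, CP CML males lay above CP CML females without overlap in 12.0% of genes. The same libraries also stood apart in other lists. WT replicate 3 was the highest WT library in the summed level of 24 other resident macrophage genes (1509 CPM, WT median 461 CPM), of monocyte or dendritic cell genes (520 CPM, median 223 CPM) and of mature neutrophil genes (73.3 CPM, median 32.9 CPM), and the lowest in LSK genes (3048 CPM, median 3453 CPM). miR-142 KO replicate 3 was the lowest KO library in each of these sums, at 408, 288, 45.7 and 2627 CPM. WT replicate 3 was also the highest WT library in T or NK cell (102 CPM, median 74.7 CPM), endothelial (503 CPM, median 421 CPM) and stromal genes (161 CPM, median 123 CPM). The same held for heme and iron, complement, apoptotic cell uptake and macrophage transcription factor genes. It did not hold for erythroblast genes, B or plasma cell genes or genes for the contact of erythroblasts and macrophages. The erythroblast sum was mostly Car2, for which WT replicate 3 was the lowest WT library. Of the stromal sum of WT replicate 3, 56.1 CPM was Lpl (WT median 7.9 CPM), one of the genes most like the C1q chains (below). The part of these cells in the members' levels was not tested. The tests of the members are therefore given with and without WT replicate 3 where it changed a call, and the sexes are compared within CP CML. The scale of each member in each library is shown in the plot of levels by library.

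**Figure D1:**
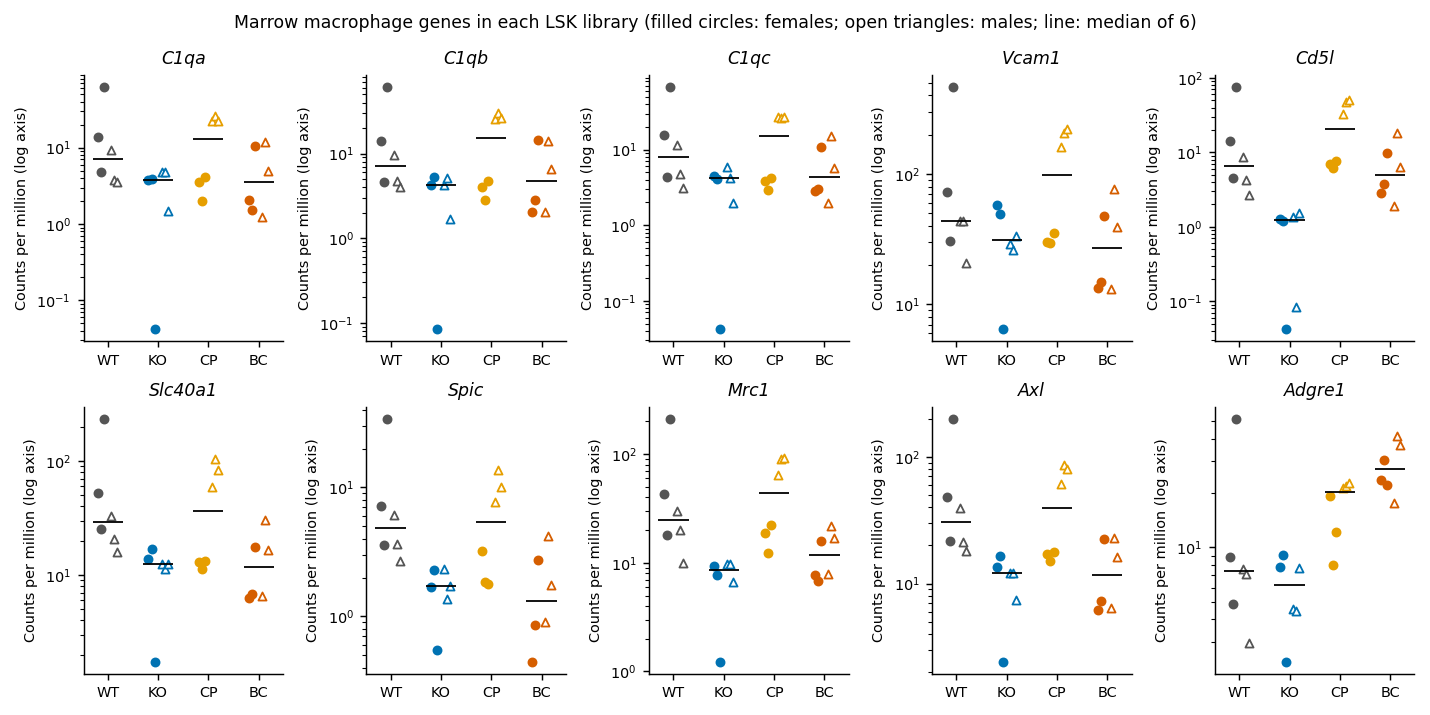
CPM (log axis, its range set for each panel) of the 10 members in each of 24 LSK libraries, by group (WT, miR-142 KO, CP CML, BC CML). Filled circles are females, open triangles are males and the line is the median of 6. WT replicate 3 is the top WT point in every panel, miR-142 KO replicate 3 is the bottom KO point, and the 3 CP CML males lie above the 3 CP CML females in every panel, while Adgre1 alone has its highest group median in BC CML (27.0 CPM).

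C1q, the recognition molecule of the classical complement pathway, is built of 3 chains, A, B and C, encoded side by side on chromosome 4 (mm10): C1qa at chr4:136895916-136898844, C1qc at chr4:136889802-136892914 and C1qb at chr4:136880145-136886177, all on the minus strand and within 18.7 kb. The summed C1q chains stood at 43.4, 13.9, 193, 30.2, 13.3 and 10.6 CPM in WT replicates 1 to 6, a mean of 50.7 ± 70.8 CPM (SD, n = 6). In miR-142 KO the lowest library was at 0.170 CPM, the median at 12.9 CPM and the highest at 14.9 CPM. In CP CML the 3 females stood at 11.5, 7.81 and 13.1 CPM and the 3 males at 74.4, 82.4 and 75.2 CPM. In BC CML the lowest library was at 5.22 CPM, the median at 12.3 CPM and the highest at 40.9 CPM. The groups overlapped, and the highest library was 18.2 times the lowest in WT, 10.6 times in CP CML and 7.84 times in BC CML.

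The 3 chains kept almost the same proportions in every library with more than 10 C1q counts. Over those 23 libraries C1qa took 21.0% to 34.7% of the C1q counts, with a median of 29.8%, C1qb took 28.4% to 40.4%, with a median of 35.3%, and C1qc took 29.3% to 41.0%, with a median of 35.8%, while the summed counts ran from 118 to 4593. The promoter windows of C1qb and C1qc, which lie next to each other and moved together, are printed from the RefSeq table (GRCm38.p6, 250 bases before to 50 after the gene start, on the strand of the gene). The capitals mark the letters TGCTGA, a half-site of MAF factors, and GAGGAAGT, a site of the PU.1 and Spi-C type, searched on both strands, so that a match on the other strand shows as its reverse complement.
C1qb promoter, chr4:136886151-136886450, minus strand: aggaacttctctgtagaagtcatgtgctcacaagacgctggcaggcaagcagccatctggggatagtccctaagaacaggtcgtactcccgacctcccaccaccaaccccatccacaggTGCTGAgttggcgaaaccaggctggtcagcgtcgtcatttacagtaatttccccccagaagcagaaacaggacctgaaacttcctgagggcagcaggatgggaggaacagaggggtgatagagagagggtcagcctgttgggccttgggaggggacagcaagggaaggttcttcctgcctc
C1qc promoter, chr4:136892865-136893164, minus strand: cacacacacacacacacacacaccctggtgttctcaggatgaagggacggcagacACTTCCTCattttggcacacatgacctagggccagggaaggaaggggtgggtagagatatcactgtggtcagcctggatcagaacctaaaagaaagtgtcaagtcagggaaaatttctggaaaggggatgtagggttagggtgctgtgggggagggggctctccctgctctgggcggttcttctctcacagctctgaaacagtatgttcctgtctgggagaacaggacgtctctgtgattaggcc
The table held promoters of 6 members, C1qb, C1qc, Cd5l, Spic, Mrc1 and Axl. TGCTGA occurred in 3 of those 6, in C1qb 131 bases before the start and also in Cd5l and Spic, against 19.5% of 32851 promoters, and GAGGAAGT occurred in 1 of 6, in C1qc on the opposite strand, against 3.2%.

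In miR-142 KO LSKs most of the macrophage genes were lower than in WT. By edgeR's quasi-likelihood test with Benjamini-Hochberg adjustment over all genes, fitted on all 24 libraries, 8 of the 10 members were lower and 0 were higher (adjusted p under 0.05), against 16.4% of all tested genes called lower and 19.9% called higher. All 10 were fitted lower, with a median log2 fold change of -2.37, whereas the median of all tested genes was 0.01. The extent of this rested on WT replicate 3: without it 4 members, Cd5l, Spic, Mrc1 and Axl, were lower, against 16.2% of all genes, and the median over the members was -1.20. These 4 were also the ones whose KO and WT libraries did not overlap, and 14.3% of all tested genes had no overlap in this comparison. Leaving out miR-142 KO replicate 6 left 5 calls and leaving out WT replicate 6 gave 10, fits for which the share over all genes is not given here. There were 5 calls in the females alone, against 7.48% of all genes called lower, 2 in the males alone, against 9.81%, and 2 without replicate 3 of both groups, against 14.8%. The members moved together over libraries (below), so their calls, here and in the other comparisons, are not independent. A count of them is not a count of separate results.

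Cd5l, on chr3:87357881-87371074 (plus strand), encodes a secreted scavenger protein of macrophages and showed the widest difference. It was read at 14.0, 4.52, 76.4, 8.72, 4.32 and 2.65 CPM in WT and at 1.28, 1.19, 0.0425, 1.34, 0.0830 and 1.51 CPM in miR-142 KO, where replicates 3 and 5 held 1 and 2 counts. Every KO library lay below every WT library. The log2 fold change was -4.29 ± 0.93 (SE, adjusted p = 0.000853, edgeR), and -2.83 ± 0.75 (adjusted p = 0.00501) without WT replicate 3. The call held with each of the 24 libraries left out in turn and in the females alone (-5.19, adjusted p = 0.00896, edgeR), but not in the males alone (-2.36, adjusted p = 0.0591, edgeR).

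Mrc1, the mannose receptor CD206 (chr2:14229414-14332023, plus strand), was at 42.5, 18.0, 208, 29.8, 19.9 and 10.01 CPM in WT and at 9.29, 7.76, 1.23, 9.65, 9.66 and 6.70 CPM in miR-142 KO. The highest KO library lay just below the lowest WT library. Its log2 fold change was -2.84 ± 0.67 (adjusted p = 0.00188, edgeR), -1.63 ± 0.51 without WT replicate 3 (adjusted p = 0.0155), and -1.41 ± 0.49 (adjusted p = 0.0298) without replicate 3 of both groups. It was the one member called lower in the females alone (-3.83, adjusted p = 0.0146, edgeR), in the males alone (-1.14, adjusted p = 0.0469, edgeR) and without both of those libraries.

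Axl, a receptor kinase that recognises dying cells through the bridging protein Gas6 (chr7:25756500-25788733, minus strand), was at 48.3, 21.7, 197, 39.7, 21.1 and 18.0 CPM in WT and at 13.5, 16.6, 2.42, 12.1, 12.2 and 7.48 CPM in miR-142 KO. The KO libraries lay below the WT libraries. The log2 fold change was -2.38 ± 0.61 (adjusted p = 0.00399, edgeR) and fell to -1.40 ± 0.50 (adjusted p = 0.0321) without WT replicate 3. Without replicate 3 of both groups it was -1.19 ± 0.49, with an adjusted p of 0.0637 by edgeR.

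Spic (chr10:88675270-88683023, minus strand) was at 7.17, 3.60, 33.7, 6.08, 3.62 and 2.70 CPM in WT and at 1.68, 2.29, 0.552, 2.34, 1.37 and 1.73 CPM in miR-142 KO. Here too no library of one group reached the other. The log2 fold change was -2.46 ± 0.65 (adjusted p = 0.00467, edgeR), -1.40 ± 0.53 without WT replicate 3 (adjusted p = 0.0412), and -1.22 ± 0.54 (adjusted p = 0.0837) without replicate 3 of both groups.

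The remaining calls in this comparison did not hold without WT replicate 3. Slc40a1, or ferroportin (chr1:45908070-45926519, minus strand), had a mean of 63.1 ± 83.4 CPM in WT and 11.5 ± 5.15 CPM in miR-142 KO (SD, n = 6 each), and 29.5 ± 14.4 CPM (n = 5) in WT without replicate 3. Its log2 fold change was -2.41 ± 0.69 (adjusted p = 0.00859, edgeR) and then -1.28 ± 0.57 (adjusted p = 0.0824). C1qa went from -2.35 ± 0.82 (adjusted p = 0.0276, edgeR) to -1.11 ± 0.72 (adjusted p = 0.236), C1qb from -2.21 ± 0.79 (adjusted p = 0.0313) to -1.02 ± 0.69 (adjusted p = 0.260) and C1qc from -2.33 ± 0.80 (adjusted p = 0.0255) to -1.11 ± 0.70 (adjusted p = 0.223). The C1q chains also missed the threshold without miR-142 KO replicate 6, where C1qa was at -2.20, C1qb at -2.06 and C1qc at -2.20 on the log2 scale (adjusted p = 0.0579, 0.0641 and 0.0533, edgeR), and C1qa and C1qb without miR-142 KO replicate 3, at -2.09 and -1.94 (adjusted p = 0.0517 and 0.0592). In bulk RNA, fewer macrophages and less of a transcript per macrophage cannot be told apart.

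Vcam1 and Adgre1 did not pass the test in this comparison. Vcam1 (chr3:116110020-116129688, minus strand), which also marks other marrow cells, was at 72.1, 30.4, 467, 43.6, 43.7 and 20.9 CPM in WT and at 58.2, 49.7, 6.50, 29.0, 26.2 and 33.7 CPM in miR-142 KO. Apart from replicate 3 of either group the libraries were intermixed. The log2 fold change was -1.69 ± 0.73 (adjusted p = 0.0729, edgeR), and -0.24 ± 0.59 (adjusted p = 0.778) without WT replicate 3. Adgre1 (chr17:57358686-57483529, plus strand) was at a mean of 13.7 ± 18.4 CPM in WT and 6.002 ± 2.58 CPM in miR-142 KO, with a log2 fold change of -1.14 ± 0.51 (adjusted p = 0.0807, edgeR) that became 0.01 ± 0.33 (adjusted p = 0.983) without WT replicate 3. Both were called lower without WT replicate 6 (adjusted p = 0.0442 and 0.0327, edgeR).

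Markers of other cells also differed between these groups, where 19.9% of all tested genes were called higher and 16.4% lower. Of 10 mature neutrophil genes 9 were tested, and 5 were higher and 0 lower in miR-142 KO, with a summed level of 45.7 to 219 CPM in the KO libraries against 16.4 to 73.3 CPM in WT. S100a8 rose by 2.86 ± 0.49 on the log2 scale (adjusted p = 8.36e-05, edgeR), while Ly6g held at most 4 counts in any KO library. Of 13 monocyte or dendritic cell genes 11 were tested, and 3 were higher and 2 lower (6 and 0 without WT replicate 3), with summed levels of 288 to 956 CPM in KO and 90.4 to 520 CPM in WT. The part of these cells in the result was not tested.

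**Figure D2:**
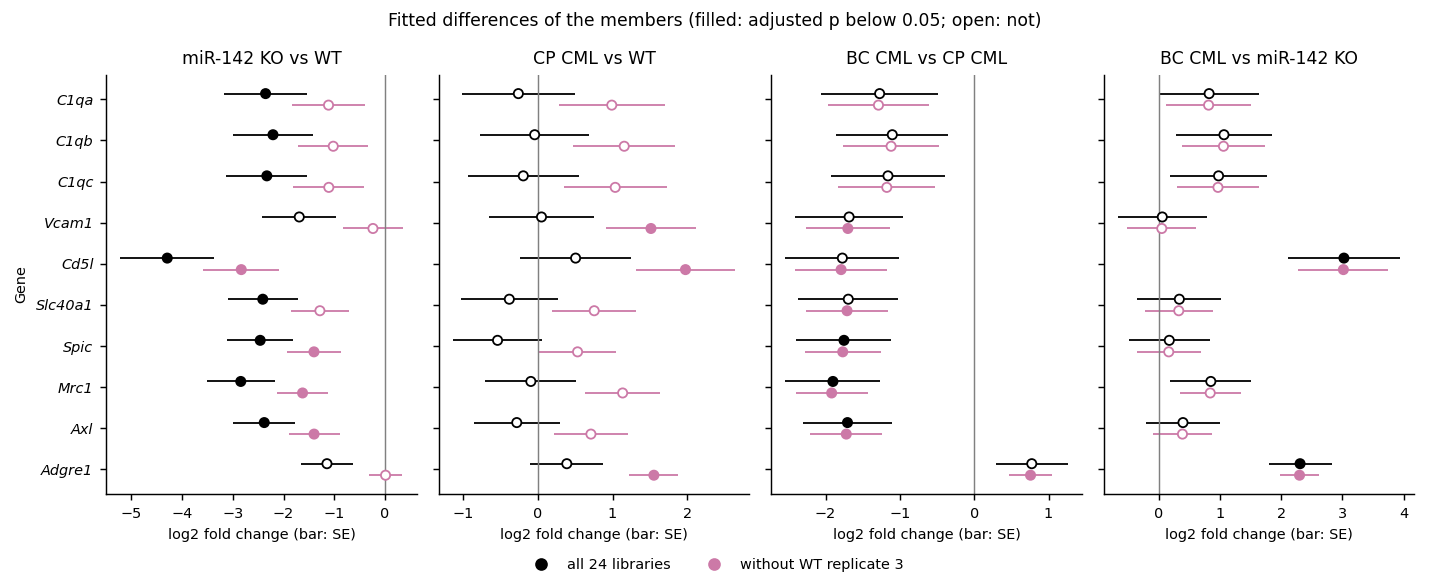
Log2 fold change (x axis, bar: SE) of each member in 4 comparisons, from edgeR on all 24 libraries (black) and without WT replicate 3 (pink). Filled points have an adjusted p under 0.05. Leaving out WT replicate 3 takes the calls in miR-142 KO vs WT from 8 to 4, adds 3 in CP CML vs WT, and raises those in BC CML vs CP CML from 3 to 7.

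In BC CML LSKs the macrophage genes other than Adgre1 were fitted lower than in CP CML, but only 3 of 10 members passed the test. Spic, Mrc1 and Axl were lower and 0 were higher, against 17.6% of all tested genes called lower and 20.4% called higher, so that the count of calls was near the background. The median log2 fold change over the members was -1.69, against 0.01 over all tested genes. No member had BC CML and CP CML libraries without overlap, whereas 21.2% of all tested genes did.

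Mrc1 was at 19.0, 12.3 and 22.1 CPM in the CP CML females, at 64.8, 89.8 and 92.5 CPM in the CP CML males, at 7.74, 6.77 and 15.8 CPM in the BC CML females and at 7.94, 21.6 and 17.1 CPM in the BC CML males. The CP CML males were high, and the females of the groups overlapped. The log2 fold change was -1.90 ± 0.64 (adjusted p = 0.0216, edgeR). For Axl it was -1.71 ± 0.60 (adjusted p = 0.0279), where CP CML had a mean of 46.2 ± 33.4 CPM and BC CML of 13.6 ± 8.05 CPM (SD, n = 6 each). For Spic it was -1.75 ± 0.64 (adjusted p = 0.0335), with means of 6.36 ± 4.88 and 1.81 ± 1.43 CPM.

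The other members missed the threshold with fitted differences of a like size. Slc40a1 had a log2 fold change of -1.70 ± 0.68 (adjusted p = 0.0509, edgeR), Vcam1 -1.68 ± 0.73 (adjusted p = 0.0717) and Cd5l -1.78 ± 0.77 (adjusted p = 0.0710), and the C1q chains lay between -1.27 and -1.10 with adjusted p of 0.209 to 0.255. The number of calls moved with single libraries. It was 7 without WT replicate 3, where Adgre1 was the 1 member called higher (adjusted p = 0.0452, edgeR) against 18.9% of all genes and the other 6 were lower against 19.1%. It was 6 without CP CML replicate 2 or BC CML replicate 5, 1 (Mrc1) without BC CML replicate 1, 2 or 4, and 0 without CP CML replicate 5 or 6, which were both males. For these fits without a CP CML or BC CML library the share over all genes is not given here.

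By sex the number of calls in BC CML vs CP CML differed. In the 3 males of each group 9 of 10 members were lower, all but Adgre1, with a median of -2.13 and against 13% of all genes. In the 3 females of each group 0 members were called by edgeR, against 6.17% lower and 6.29% higher, the lowest adjusted p of a member was 0.404, and 0 had an unadjusted p under 0.05. In the females the log2 fold changes of the members lay from -0.78 to 1.01, with a median of -0.28 and standard errors of 0.73 to 1.08. The difference between the sexes in this effect was not tested.

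Within CP CML the males exceeded the females in every member. The mean of the summed C1q chains was 10.8 ± 2.72 CPM in the females and 77.3 ± 4.38 CPM in the males (SD, n = 3 each), a ratio of 7.16. The ratios were 6.18 for Vcam1, 6.40 for Cd5l, 6.51 for Slc40a1, 4.59 for Spic, 4.63 for Mrc1, 4.55 for Axl and 1.67 for Adgre1. In an edgeR fit with group and sex as 1 factor, however, 0 of 10 members passed the adjusted threshold, although 9 had an unadjusted p under 0.05, and 0.101% of the 13914 genes tested in that fit were called. Slc40a1 had a log2 difference, males minus females, of 2.69 ± 0.71 (adjusted p = 0.160, edgeR) and C1qa of 2.86 ± 0.96 (adjusted p = 0.242). In WT the log2 difference lay from -2.62 to -1.78 over the 10 members with replicate 3, all with an unadjusted p under 0.05, and from -0.82 to -0.22 without it, and in miR-142 KO and BC CML the fitted differences between the sexes lay from -0.38 to 0.80. None of these passed the adjusted threshold. Within CP CML the summed level of the other resident macrophage genes was also higher in the males (755 to 837 CPM) than in the females (493 to 518 CPM), that of mature neutrophil genes was at 39.7 to 53.5 against 31.1 to 36.3 CPM, and that of monocyte or dendritic cell genes was lower (758 to 907 against 940 to 1030 CPM). B or plasma cell genes were also lower in the males (165 to 322 against 353 to 757 CPM), and stromal genes (190 to 246 against 171 to 187 CPM), heme and iron genes (1999 to 2111 against 1880 to 1946 CPM) and apoptotic cell uptake genes (1003 to 1059 against 921 to 941 CPM) were higher. The stromal sum includes Lpl, which ran from 4.9 to 35.7 CPM over the CP CML libraries and is one of the genes most like the C1q chains. The part of these cells was not tested. The labels give sex but no day of sorting, so that the sex of the CP CML mice and any occasion on which the males were sorted together cannot be told apart.

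Between CP CML and WT 0 of 10 members were called by edgeR, and 0 had an unadjusted p under 0.05 or were called by DESeq2, against 22.5% of all tested genes called higher and 22.9% called lower. No member had groups without overlap, whereas 22.1% of all tested genes did. The members had a median log2 fold change of -0.14, and the fitted values lay from -0.54 to 0.51 with standard errors of 0.49 to 0.76. Without WT replicate 3 all 10 were fitted higher, with a median of 1.09, and 3 were called: Vcam1 at 1.51 ± 0.60 (adjusted p = 0.0425, edgeR), Cd5l at 1.97 ± 0.66 (adjusted p = 0.0186) and Adgre1 at 1.55 ± 0.33 (adjusted p = 0.000615), against 24.5% of all genes called higher. In the males alone all 10 were higher in CP CML, against 14.3% of all genes, and in the females alone 2, Slc40a1 and Spic, were lower, against 9.72%, where WT replicate 3 is one of the 3 WT females.

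Between BC CML and miR-142 KO, which both lack miR-142, 2 of 10 members were higher in BC CML, Cd5l and Adgre1, and 0 were lower, against 20.3% of all tested genes called higher and 19.3% called lower. The same 2 had groups without overlap, which 11.2% of all tested genes had. Cd5l was at 2.80, 3.75, 9.85, 1.90, 18.4 and 6.32 CPM in BC CML, above the highest KO library, with a log2 fold change of 3.02 ± 0.92 (adjusted p = 0.0121, edgeR). Adgre1 was at 23.6, 30.5, 22.1, 17.7, 41.1 and 36.9 CPM in BC CML and at 7.83, 9.04, 2.34, 4.59, 4.48 and 7.74 CPM in miR-142 KO. Its log2 fold change was 2.31 ± 0.51 (adjusted p = 0.00135). Both calls held with each library left out in turn and in the males alone, and both genes missed the threshold in the females alone, with log2 fold changes of 2.73 for Cd5l and 2.04 for Adgre1 (adjusted p = 0.125 and 0.116, edgeR). The C1q chains, at 0.82 to 1.07, and the other members were not called.

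The effect of miR-142 loss with BCR-ABL was set against that without it, as BC CML minus CP CML less miR-142 KO minus WT. By edgeR 0 of 10 members passed the adjusted threshold, against 1.91% of all tested genes called higher and 2.08% called lower, and 2 had an unadjusted p under 0.05. These were Adgre1 at 1.92 ± 0.70 (adjusted p = 0.123, edgeR) and Cd5l at 2.52 ± 1.18 (adjusted p = 0.239). Without WT replicate 3, 8 of 10 members were fitted with the other sign and 0 were called.

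The levels of the members were next compared with the C1q chains in the same library, to see how far they moved together. The cause of any shared movement was not tested. Across the 24 libraries the log2 level of Axl correlated with the mean of the standardised C1q chains at r = 0.939, that of Slc40a1 at 0.942, Mrc1 at 0.937, Vcam1 at 0.907, Spic at 0.864 and Cd5l at 0.834. Adgre1 followed at 0.557. These are descriptions over libraries that share groups, and they were 0.927, 0.915, 0.893, 0.891, 0.860, 0.732 and 0.306 over the 22 libraries without replicate 3 of WT and miR-142 KO. After the group means were subtracted Axl was at 0.965, Slc40a1 at 0.953, Mrc1 at 0.951 and Adgre1 at 0.730.

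**Figure D3:**
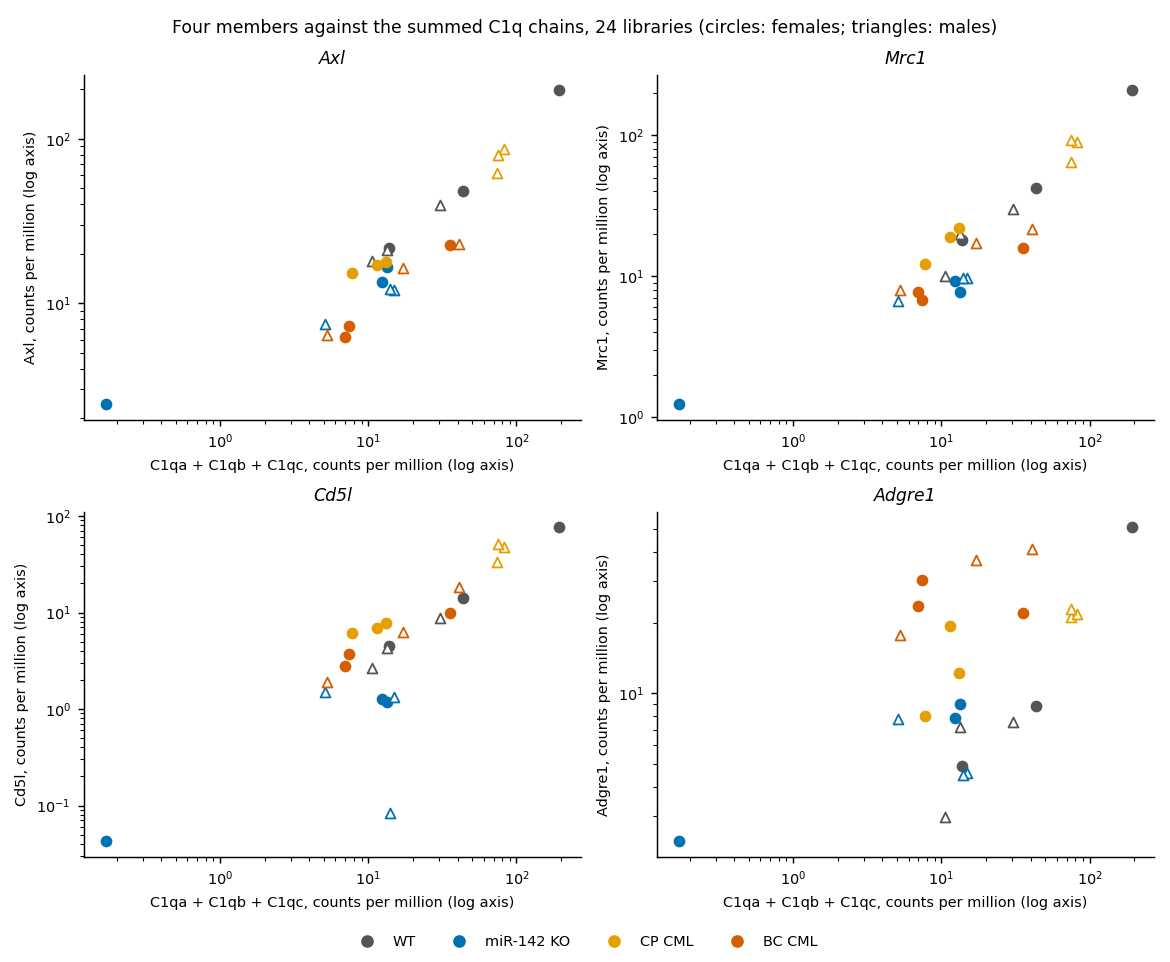
Level of Axl, Mrc1, Cd5l and Adgre1 (y axis, CPM, log) against the summed C1q chains (x axis, CPM, log) in 24 libraries. Circles are females, triangles are males and colours are the groups. Axl and Mrc1 rise with C1q over all groups, Cd5l lies lower in miR-142 KO at a like C1q level, and Adgre1 is high in BC CML at both low and high C1q.

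Counts of each member per C1q count varied less in WT than the levels did. In WT, where the summed C1q counts differed by 18.2 times as CPM, Axl stood at 1.02 to 1.70 counts per C1q count, Mrc1 at 0.944 to 1.49, Slc40a1 at 1.08 to 1.82 and Cd5l at 0.25 to 0.396. WT replicate 3 was inside or at the edge of these ranges, with 1.02 for Axl, 1.08 for Mrc1, 1.20 for Slc40a1 and 0.396 for Cd5l. The CP CML males were within the range of the other CP CML libraries or below it, at 0.447, 0.583 and 0.681 for Cd5l against 0.599, 0.780 and 0.590 in the females. miR-142 KO replicate 3 was left out of these ratios for its 4 C1q counts.

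Cd5l differed between the groups also per C1q count. Its ratio was highest in CP CML, at 0.613 ± 0.111, followed by 0.395 ± 0.0797 in BC CML and 0.318 ± 0.0484 in WT (SD, n = 6 each), and 0.117 ± 0.108 in miR-142 KO (n = 5). The CP CML libraries all lay above the WT libraries. The miR-142 KO libraries were at 0.104, 0.0894, 0.0899, 0.00588 and 0.297, so that 4 of 5 lay below every WT library and replicate 6 lay inside the WT range. Mrc1 per C1q count was at 1.13 ± 0.219 in WT and 0.796 ± 0.296 in miR-142 KO (n = 5), where again replicate 6, with the fewest C1q counts of the 5 (118), lay inside the WT range. Other members did not all share this direction. In WT and miR-142 KO, Axl was at 1.38 ± 0.275 and 1.09 ± 0.273, Spic at 0.221 ± 0.0465 and 0.18 ± 0.0932, and Slc40a1 at 1.4 ± 0.279 and 1.3 ± 0.677. Vcam1 was higher in miR-142 KO, at 3.77 ± 1.99 against 2.16 ± 0.65 in WT.

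Adgre1 per C1q count was the least fixed. WT libraries stood at 0.204 to 0.536, miR-142 KO libraries at 0.307 to 1.52, CP CML libraries at 0.265 to 1.68 and BC CML libraries at 0.619 to 4.13, and within BC CML the highest library was 6.68 times the lowest. In CP CML the 3 females were at 1.68, 1.02 and 0.930 and the 3 males, with more C1q, at 0.285, 0.265 and 0.304. The 13 monocyte or dendritic cell genes summed to 1207 to 1453 CPM in BC CML, 758 to 1030 CPM in CP CML, 288 to 956 CPM in the KO and 90.4 to 520 CPM in WT, so that BC CML was highest in both, whereas the sum had a higher median in the KO than in WT (669 against 223 CPM) and Adgre1 a lower one (6.16 against 7.37 CPM). From miR-142 KO to BC CML 2 of the 11 tested genes were higher and 5 lower, with a median of -0.16, against 20.3% and 19.3% of all tested genes. Ccr2, the monocyte chemokine receptor, was higher by 2.33 ± 0.32 on the log2 scale (adjusted p = 8.56e-06, edgeR), and the dendritic cell gene Clec9a was lower, at -3.68 ± 0.80 (adjusted p = 0.00112). F4/80 is also made by monocytes and their precursors, and the part of these cells in the Adgre1 level was not tested.

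**Figure D4:**
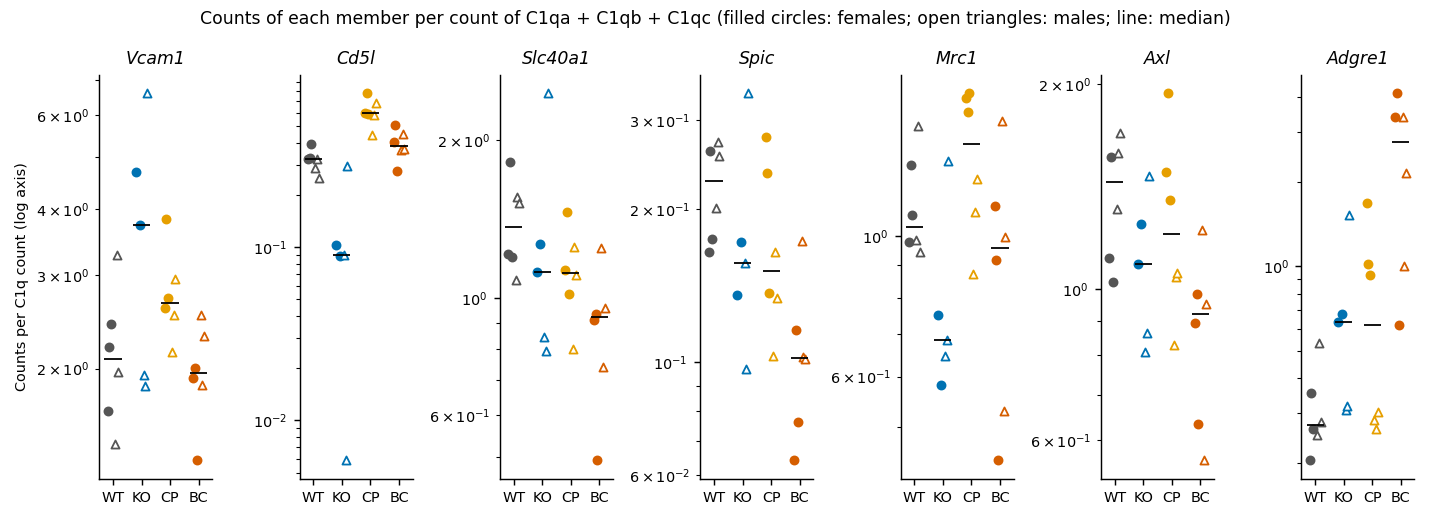
Counts of 7 members per count of C1qa, C1qb and C1qc together (y axis, log, its range set for each panel) by group, without miR-142 KO replicate 3. Filled circles are females, open triangles are males and the line is the median. The median of Cd5l runs from 0.0899 in miR-142 KO through 0.323 in WT and 0.386 in BC CML to 0.594 in CP CML, and Adgre1 has its highest median, 2.77, in BC CML.

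miR-142 KO replicate 3 gave the level of the members in a library almost without C1q. Next to 4 C1q counts it held 153 counts of Vcam1, 57 of Axl, 55 of Adgre1, 41 of Slc40a1, 29 of Mrc1, 13 of Spic and 1 of Cd5l. Of the 24 other resident macrophage genes, 9 held 3 counts or fewer in this library, among them Fcna, a ficolin of tissue macrophages, Siglec1, the sialoadhesin CD169, and the apoptotic cell receptor Timd4 at 0 counts and the apoptotic cell receptor Mertk at 1. The 9 include 3 genes, Marco, Folr2 and Lyve1, that held 3 counts or fewer in every KO library. Others did not: Cd163 held 53 counts, Hmox1 39 and Csf1r 1315, and Cd68, a lysosomal protein of phagocytes, was at 33.9 CPM, the highest of the KO libraries. A count of 0 allows up to 3 counts. At 6.50 CPM Vcam1 was 0.193 of the median of the other 5 KO libraries, Axl at 2.42 CPM was 0.199 and Adgre1 at 2.34 CPM was 0.302, whereas C1qa was 0.0111.

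Per kilobase of transcript, Vcam1 was the most abundant member on average in all 4 groups, at 30.2 ± 46.5 and 30.5 ± 24.7 CPM per kb in WT and CP CML and at 9.05 ± 4.88 and 9.12 ± 6.79 CPM per kb in miR-142 KO and BC CML (SD, n = 6 each). Without replicate 3 the WT mean of Vcam1 was 11.2 ± 5.16 CPM per kb (SD, n = 5). The C1q chains came next in WT, at 15.2 to 17.0 CPM per kb, followed by Axl and Mrc1 at 10.4 each, Slc40a1 at 9.66, Cd5l at 9.08, Spic at 7.02 and Adgre1 at 4.26. With SDs larger than the means, neighbours in this order did not differ beyond their spread. Cd5l was last in miR-142 KO, at 0.448 ± 0.327 CPM per kb, and Adgre1, last in WT, was next to Vcam1 in BC CML, at 8.88 ± 2.83.

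The genes whose levels were most like the C1q chains were taken as the 10 highest correlations among genes that are no members. Over the 24 libraries these were Fcna (r = 0.981), Siglec1 (0.979), Mertk (0.977), the iron and manganese transporter of phagosomes Slc11a1 (0.967), Kcna2 (0.944), Tmem26 (0.942), the growth factor Igf1 (0.933), Adap2 (0.929), Kcnj10 (0.924) and the lipoprotein lipase gene Lpl (0.923). After subtraction of the group means Fcna (0.992), Mertk (0.979), Siglec1 (0.975), Slc11a1 (0.965), Kcna2 (0.952), Tmem26 (0.942), Slc1a3 (0.937), Adap2 (0.930), Ms4a7 (0.916) and Igf1 (0.913) were highest. With the C1q chains and other members counted, 19 genes of 13520 exceeded 0.9 over all libraries. The mean of Fcna was 21.9 ± 34.7 CPM in WT (7.8 ± 4.58 CPM without replicate 3, n = 5) against 1.74 ± 1.15 CPM in miR-142 KO, and 14.3 ± 12.5 CPM in CP CML against 4.66 ± 4.23 CPM for BC CML (SD, n = 6 each).

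Among 24 other genes of resident macrophages 21 were tested. The counts of this and the lists below stand against the shares over all tested genes, 16.4% lower and 19.9% higher in miR-142 KO vs WT and 17.6% lower and 20.4% higher in BC CML vs CP CML. They were 22.9% lower and 22.5% higher in CP CML vs WT and 19.3% lower and 20.3% higher in BC CML vs miR-142 KO. Without WT replicate 3 the shares lower and higher were, in the same order, 16.2% and 21.1%, 19.1% and 18.9%, 21.5% and 24.5%, and 20.4% and 19.9%. In miR-142 KO vs WT 7 were lower and 2 higher, with a median log2 fold change of -0.68, and 3 were lower and 5 higher without WT replicate 3. The call of smallest p was Dnase2a, which was higher (0.48 ± 0.087, adjusted p = 0.000167, edgeR; 0.58 without WT replicate 3). Hmox1, the heme-degrading enzyme, was lower by -3.46 ± 0.73 (adjusted p = 0.000646, edgeR; -2.28 without WT replicate 3), as was the haptoglobin-hemoglobin receptor Cd163 (-2.55 ± 0.58, adjusted p = 0.00146; -1.44) and Fcna (-3.61 ± 0.91, adjusted p = 0.00323; -2.09). In BC CML vs CP CML 2 of 21 were lower, Cd163 (-2.79 ± 0.59, adjusted p = 0.000741) and Hmox1 (-1.82 ± 0.68, adjusted p = 0.0377), and 0 were higher, with a median of -0.32. In CP CML vs WT 3 were higher and 0 lower, with a median of -0.05 (9 and 0, with a median of 0.86, without WT replicate 3), and one of the 3 was Csf1r (0.86 ± 0.32, adjusted p = 0.0326), which monocytic progenitors also express. In BC CML vs miR-142 KO 1 was higher (6 without WT replicate 3) and 0 were lower, the 1 being Dnase2a (0.42 ± 0.087, adjusted p = 0.000702), the lysosomal nuclease that digests expelled nuclei.

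Lists for the work of these macrophages were mixed in direction. Of 18 tested heme and iron genes 3 were lower and 6 higher in miR-142 KO vs WT (1 and 8 without WT replicate 3), with a median of 0.16, and the haptoglobin gene Hp was higher by 2.62 ± 0.34 (adjusted p = 2.10e-06, edgeR). In BC CML vs CP CML 1 was lower (3 without WT replicate 3) and 8 were higher, led by Nfe2l2 (0.41 ± 0.042, adjusted p = 1.15e-07). Of 17 tested complement genes 2 were lower and 6 higher in miR-142 KO vs WT, where C1ra, the protease that acts in complex with C1q, was lower (-1.64 ± 0.17, adjusted p = 9.31e-08) and C3 higher (2.19 ± 0.34, adjusted p = 2.39e-05). In BC CML vs CP CML 1 was lower, C1ra (-1.61 ± 0.17, adjusted p = 1.39e-07), and 6 were higher.

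Of 18 tested genes of apoptotic cell uptake 7 were lower and 4 higher in miR-142 KO vs WT, with a median of -0.16, and 3 were lower and 4 higher without WT replicate 3. There were 6 lower and 3 higher in BC CML vs CP CML (8 and 3 without WT replicate 3). Gas6, the ligand of Axl, was lower in miR-142 KO vs WT (-2.14 ± 0.27, adjusted p = 1.76e-06, edgeR) and in BC CML vs CP CML (-1.78 ± 0.28, adjusted p = 2.57e-05), while Stab2, a scavenger receptor, was higher in both (3.80 ± 0.61, adjusted p = 3.26e-05, and 4.28 ± 0.64, adjusted p = 1.59e-05). Of 8 genes for the contact of erythroblasts and macrophages 1 was lower and 4 were higher in miR-142 KO vs WT, among them the integrin Itgav (1.08 ± 0.059, adjusted p = 2.19e-12), with Itga9, an integrin that binds VCAM-1, lower (-1.21 ± 0.16, adjusted p = 4.18e-06). In BC CML vs CP CML 3 were higher (2 without WT replicate 3) and 1 was lower. Of 10 macrophage transcription factors 2 were lower and 1 higher in miR-142 KO vs WT, and 1 was lower and 2 were higher without WT replicate 3. Spi1, which encodes PU.1, was higher (0.38 ± 0.068, adjusted p = 0.000119).

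Erythroblast genes were read beside the members because erythroblasts sit on these macrophages. Of 12 listed genes 10 were in the table and 9 were tested. Their summed level was highest in WT, at 390 to 562 CPM, followed by 186 to 304 CPM in CP CML, 143 to 271 CPM in the KO and 73.9 to 152 CPM in BC CML. This sum was mostly Car2, whose means fell in the same order, at 424, 222, 178 and 98.7 CPM in WT, CP CML, the KO and BC CML. WT replicate 3, the highest library in every member, stood at 426 CPM in the sum, below the WT median of 490 CPM. For Car2 it was the lowest WT library, at 331 CPM. No sum without Car2 was made, so these sums cannot show how this library or the groups stood in the other erythroblast genes. In miR-142 KO vs WT 3 of the 9 tested genes were lower and 0 higher (2 and 0 without WT replicate 3). In BC CML vs CP CML 5 were lower and 0 higher (6 and 0). In CP CML vs WT, where no member was called, 7 were lower and 0 higher (5 and 0), against 22.9% of all tested genes called lower.

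Markers of the remaining cell types were counted in the same way. Of 8 tested B or plasma cell genes 2 were lower in miR-142 KO vs WT and 3 in BC CML vs CP CML, with 0 higher in either, and their summed level was 68.97 to 989 CPM in WT and 25.7 to 38.9 CPM in miR-142 KO. Of 4 tested T or NK cell genes 3 were higher and 1 was lower in miR-142 KO vs WT, and of 10 endothelial genes 2 were higher and 4 lower. Of 6 tested stromal genes 0 were higher and 1, Lpl, was lower (0 without WT replicate 3). Of 10 LSK genes 2 were higher and 5 lower in miR-142 KO vs WT, and 1 was higher and 5 lower in BC CML vs CP CML.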

How the data were processed

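BM LSKs were sorted from 24 mice after lineage depletion or c-kit selection, and polyA libraries (Kapa mRNA HyperPrep) were sequenced as paired reads. The authors trimmed reads with Trimmomatic and FASTP, mapped them to mm10 with STAR 2.6.0 and counted genes with HTSeq 0.11.1, and the deposited values are raw counts per gene, with a gene length in kb. No strand setting is given in the sources used here. All 24 count columns matched a sample's label.

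From these counts, CPM was computed on library totals, and CPM per kb with the deposited length. Tests used edgeR 4.0.16 in R 4.3.3 (TMM, filterByExpr, quasi-likelihood F test, all 24 libraries, Benjamini-Hochberg adjustment over 13520 genes). DESeq2 1.42.0 and the likelihood ratio test that the study used were alternatives, as were other scalings and filters, sex as a covariate, the groups compared alone and each library left out. Fits by sex and without 2 libraries were chosen after seeing the data. Correlations used log2 CPM with a prior count of 2. All 10 members were named in every comparison, from other lists at most 4 called genes with the smallest p, and the 10 genes most like C1q. The members and lists were chosen with earlier results of these data known. Nothing says whether mice were litter mates or sorted on one day, so the spread behind the p-values may mix mice with litter and sorting day. Counting limits cover counting error only, and no 2 libraries had identical counts.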

Additional observations from a re-analysis of the deposited data

Results flagged for a closer look

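In 40 groups of 6 libraries (10 members in 4 groups), the highest or lowest library was set against the gap to its nearest neighbour, as a share of the range of the group, against Dixon's 95% critical value. Chance alone flags about 1 in 20 such groups where values are independent and normally distributed. CPM need not be normal, and the members moved together over libraries, so the flags are not independent and their number cannot be set against that rate. This singled out 11, with shares of 0.648 to 0.885, and 10 of them were the female WT replicate 3 in each of the members. It was far above the other WT libraries at 62.9 CPM for C1qa (others 3.52 to 13.9), 61.8 CPM for C1qb (3.98 to 13.9) and 68.2 CPM for C1qc (3.11 to 15.6). It was at 467 CPM for Vcam1 (20.9 to 72.1), 76.4 CPM for Cd5l (2.65 to 14.0), 231 CPM for Slc40a1 (16.1 to 52.7) and 33.7 CPM for Spic (2.70 to 7.17). It was at 208 CPM for Mrc1 (10.01 to 42.5), 197 CPM for Axl (18.0 to 48.3) and 51.0 CPM for Adgre1 (2.97 to 8.87). The other was the female miR-142 KO replicate 3, the lowest library for Mrc1 at 1.23 CPM, where the other 5 were at 6.70 to 9.66 CPM. No cause was tested for either library.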

How the results depend on the processing

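The number of members called in BC CML vs CP CML was 3, and became 5 with the likelihood ratio test, 7 with only the groups compared and 0 to 7 over the single libraries left out (0 without CP CML replicate 5 or 6, 7 without WT replicate 3). Chosen after seeing the data, it was 0 in females only, 9 in males only, all lower, and 7 without replicate 3 of WT and miR-142 KO. Those 7 were 1 higher and 6 lower, against 20.9% of all genes called higher and 20.9% called lower in that fit. In miR-142 KO vs WT it was 8, 9 with the likelihood ratio test and 6 with only the groups compared, with 4 to 10 over the single libraries left out (4 without WT replicate 3, 10 without WT replicate 6, 5 without miR-142 KO replicate 6), 5 in females only, 2 in males only and 2 without those 2 libraries. In CP CML vs WT it was 0, with 0 to 3 (3 without WT replicate 3), then 2 in females only, both lower, and 10 in males only, all higher. It was 4 without those 2 libraries, all higher, against 26.2% of all genes called higher in that fit. In BC CML vs miR-142 KO it was 0 in females only and 2 in all other fits, and for the difference of the miR-142 effects it was 0 throughout. For the likelihood ratio test, the groups compared alone and single libraries other than WT replicate 3, shares over all genes are not given here. Log2 fold changes in CP CML vs WT that turned from below 0 to a call above 0 were, in males only, C1qa 2.13, C1qb 2.21, C1qc 2.11, Slc40a1 1.87, Spic 1.38, Mrc1 2.10 and Axl 1.58, and Mrc1 1.14 without those 2 libraries. Of 390 values of single members under other tests, scalings, filters and covariates, 373 kept their direction and side of the threshold, 11 gained a call, 2 lost one and 4 changed sign without a call. The cause was not tested. The 1 or 2 counts of C1q chains and Cd5l in 2 miR-142 KO libraries limit any ratio there. No paired analysis was possible because the labels carry no replicate numbers.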
